A study of Canis lupus familiaris with 28 samples.

Results

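*NFATC1* encodes nuclear factor of activated T cells 1, a transcription factor that waits in the cytoplasm until calcium enters the cell. It was described here as a single gene (identifier ENSCAFG00000000011), 1 of 32704 identifiers counted in canine histiocytic sarcoma (HS), its control tissues and cultured cells, and reads were counted on it in all 28 libraries. The identifier was paired with the symbol in the study's supplementary tables. The gene was chosen by its measured level in these tumors, controls and cells, so its levels and differences are a description and carry no test.

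Calcium released from the endoplasmic reticulum through inositol trisphosphate receptors activates the phosphatase calcineurin, which strips phosphates from NFAT proteins so that they enter the nucleus, and kinases such as casein kinase 1, DYRK and the p38 and JNK kinases put phosphates back. In the nucleus NFAT proteins bind together with partners such as AP-1, EGR proteins and the coactivator EP300 and drive cytokine genes in lymphocytes. In myeloid cells *NFATC1* is best known as the master factor of osteoclast formation downstream of the receptor RANK (*TNFRSF11A*), and NFAT signalling also operates in dendritic cells, the lineage from which most canine HS arises.

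The tissue set held tumors of 18 Bernese Mountain Dogs (BMDs), of which 15 were HS and 3 were of the hemophagocytic subtype (HHS), and the tumors came from lung, liver, spleen, thorax, leg, shoulder or lymph node. The 6 controls were 3 blood samples of unaffected BMDs plus 1 library each of German Shepherd spleen, lung and liver. Cultured cells were the HS lines BD and OD from BMDs, the line PJ from a Rottweiler, and the unstimulated strain DC3F9, made from blood monocytes of a mongrel with granulocyte-macrophage colony-stimulating factor (GM-CSF) and interleukin-4, with 1 library each. Each HS line is the cells of 1 dog, and the monocyte-derived DC3F9 is a culture model of a dendritic cell and not a tissue dendritic cell.

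Levels are given as CPM, the reads of a gene scaled to a fixed total of reads counted on all genes of the library. Tumor libraries held 99701394 to 171815073 counted reads, control libraries 133524755 to 180801439 and cell libraries 82007857 to 131518875. *NFATC1* had 437 reads in the liver control, its lowest library, and 12628 in blood control 3, where its count was highest. The column names of the blood controls carry a prefix of their own, and those of all other tissue libraries share another. The prefix is read here as the flow cell, which the labels do not state. Flow cell and tissue thus cannot be told apart in a comparison with blood. Labelled tissues were checked against marker genes. The summed level of 6 hepatocyte genes was 7138 CPM in the liver control, the lung epithelium gene *AGER* reached 1982 CPM in the lung control, and 6 MHC class II genes together made 4308 CPM in DC3F9 against 1209 CPM in BD, 85.1 CPM in OD and 21.2 CPM in PJ. The liver control stood apart from the rest of the tissue set, with a TMM scaling factor of 0.342, and the study left it out of its own tests.

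*NFATC1* was highest in DC3F9, at 106.2 CPM, above each of the other 27 libraries. The exact 95% Poisson interval of that single library was 104.0 to 108.5 CPM and covers counting error only. The lines followed with 77.1 CPM in BD, 71.7 CPM in OD and 64.1 CPM in PJ (mean 70.9 ± 6.52, SD, n = 3), and they lay within 1.203-fold of each other. DC3F9 was 1.498-fold above the mean of the lines, and 2.04-fold above it after TMM scaling, which moved DC3F9 to 133.8 CPM.

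Blood controls had 72.8, 41.9 and 85.6 CPM of *NFATC1* (mean 66.8 ± 22.5, SD, n = 3). Among the organ controls the level was 35.2 CPM in lung, 26.0 CPM in spleen and 2.42 CPM in liver. The order was therefore blood, lung, spleen and liver, with every blood library above every organ library, and before TMM scaling the liver library was below all 27 others. TMM scaling narrowed the distance between organs, to 27.1 CPM in lung, 22.04 CPM in spleen and 7.06 CPM in liver.

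In the 18 tumors *NFATC1* ranged from 3.76 to 42.8 CPM, with a median of 23.8 CPM and a mean of 22.6 ± 11.2 CPM (SD). The highest tumor was 11.4-fold above the lowest. The tumor median was 3.06-fold below the blood median (72.8 CPM) and close to the spleen control. Of the 18 tumors, 17 were below the lowest blood library, the lung tumor HS35 at 42.8 CPM being the exception, and 18 were below it after TMM scaling. Tumors lay wholly below blood for 7.45% of the genes tested. Against the organs, 16 of 18 tumors were below the lung control and 11 of 18 below the spleen control (11 and 8 after TMM scaling), and none was below the liver control (1 after TMM scaling). Levels in bulk tissue do not separate fewer cells that express the gene from less RNA per cell.

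All 18 tumors were below the lowest HS line, as for 9.39% of the 13605 genes with a mean of at least 1 CPM over these libraries, and the median of the lines (71.7 CPM) was 3.01-fold above the tumor median. Tumors and cells were counted in separate tables, and by the methods their libraries were made with different kits at different sites, while the labels name the same kit, so this gap was not tested. The ranges of the lines and of blood overlapped, and the levels of these neighbours in the order did not separate. The plot of levels by group and site shows the same order.

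**Figure D1:**
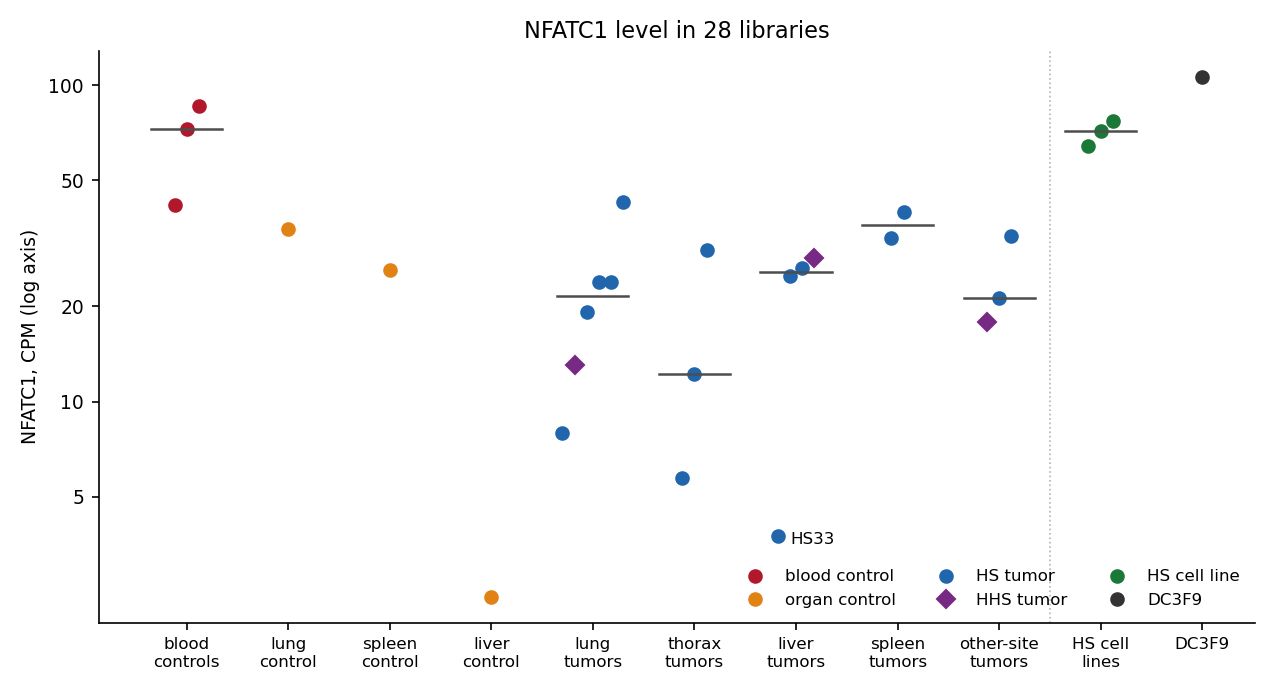
*NFATC1* level (CPM, log axis) in each of the 28 libraries, by tissue of origin and culture, with 1 point per library and a line at the median of groups with more than 1 library. DC3F9 is highest at 106.2 CPM, blood and lines lie between 41.9 and 85.6 CPM, and tumors spread from 3.76 to 42.8 CPM. The dotted line separates the tissue table from the cell table.

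The 6 lung tumors had 23.8 (HS27), 42.8 (HS35), 7.97 (HS47), 23.9 (HS48), 19.2 (HS52) and 13.01 CPM (HS53) of *NFATC1*. Of these, 5 of the 6 were below the lung control (4 after TMM scaling). The 4 liver tumors had 3.76 (HS33), 26.5 (HS36), 24.9 (HS50) and 28.4 CPM (HS46). All of them were above the liver control, except that HS33, the lowest tumor of the set, fell below it after TMM scaling. The 3 thoracic tumors had 30.01 (HS4), 5.74 (HS14) and 12.3 CPM (HS37). Both spleen tumors, HS29 at 32.7 and HS51 at 39.6 CPM, were above the spleen control, with a mid-value of 36.2 CPM that was 1.39-fold the control's. The leg tumor HS34 had 33.3 CPM, the shoulder tumor HS39 21.3 CPM and the lymph node tumor HS41 17.8 CPM. The ranges of lung, liver and thoracic tumors overlapped widely. Both spleen tumors were above every liver and thoracic tumor and, before TMM scaling, inside the range of the lung tumors. After TMM scaling HS29 (39.9 CPM) was above the highest lung tumor, HS35 (35.3 CPM). With 2 spleen tumor libraries no test was made.

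HHS and HS tumors overlapped in *NFATC1*. The 3 HHS tumors had 17.8 (HS41, lymph node), 28.4 (HS46, liver) and 13.01 CPM (HS53, lung; mean 19.7 ± 7.85, SD), and the 15 HS tumors ranged from 3.76 to 42.8 CPM with a median of 23.9 CPM (mean 23.2 ± 11.8). All 3 HHS values lay inside the HS range, with 5 HS tumors above the highest and 4 below the lowest HHS tumor. The log2 fold change (log2FC) of HHS over HS was -0.26 with a standard error (SE) of 0.54, and 0.005 without HS53. No gene of 19853 tested was called in that comparison (0%, with 797 genes, or 4.01%, at an unadjusted p under 0.05 by the edgeR quasi-likelihood test, and 1 call by DESeq2), and of the 25 NFAT list genes tested 0 were called and 0 had an unadjusted p under 0.05.

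In the fits, *NFATC1* was below the 5 controls that the study kept (blood, spleen and lung) by a log2FC of -1.10 (SE 0.39). Split by control, it was -1.50 (SE 0.44) against blood and -0.18 (SE 0.59) against spleen and lung, which shared the tumors' flow cell. These comparisons share the tumors and some of the controls. Spleen and lung were from German Shepherds and all tumors from BMDs, so breed and disease cannot be told apart against them. Within the tumors' own flow cell the difference was smaller than its SE, and its sign turned without the lung control (0.029) or with the liver control added (0.28). Markers of T and NK cells, in which NFAT proteins are central, also separated blood from tumors. The summed level of 7 T and NK cell markers was 944.4 to 1431 CPM in blood, 295.0 CPM in spleen, 66.9 CPM in lung and 38.6 to 330.5 CPM in tumors. In the tumors 1 of the 7 genes stayed under 1 CPM in every library, and *TAGAP* made 51.5% of the mean sum. The HS lines had sums of 29.7 to 115.0 CPM, of which *TAGAP* made 81.5%, so the tumor sum is not a measure of T and NK cells alone. Of these markers 7 of 7 were called lower in tumors than in blood (9.09% of all genes), 6 of 6 tested lower than in the 5 controls (10.3%) and 1 of 6 lower than in spleen and lung (6.99%). Summed myeloid markers, mostly *LYZ*, were 10600 to 13800 CPM in blood and 1079 to 7549 CPM in tumors. The part of these cells in the *NFATC1* difference was not tested.

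A part of the wiring around *NFATC1* was described with 28 further genes in 4 lists, for signals into NFAT, NFAT kinases, nuclear partners and target genes. Only genes that could be named here entered the lists. The calcineurin subunits and the other NFAT genes are not among them and were not analysed. A gene was called at an absolute log2FC above 1.5 and a Benjamini-Hochberg adjusted p under 0.05 in edgeR's quasi-likelihood test across all genes. The lists, the markers and the neighbours were chosen with earlier results of these data known. Their calls and adjusted p-values are therefore a description and no independent test. Against the 5 controls 8 of the 25 list genes tested were called, 1 higher and 7 lower, where 17.8% of all 19430 genes tested were called (7.45% higher and 10.3% lower). Their median log2FC was -0.19, against -0.01 over all genes, and the count fell to 4, 4 and 5 without blood control 1, 2 or 3. Against blood 9 of 25 were called, 3 higher and 6 lower, where 25.3% of 20353 genes were called, 16.3% higher and 9.09% lower (list median -0.07, all genes 0.44). Against spleen and lung 2 of 25 were called, both lower, where 8.77% of 21533 genes were called, 1.78% higher and 6.99% lower (list median 0.19, all genes 0.08). No list gene was called (0) once the spleen library was taken out, and 1 once the lung library was, while the calls over all genes went from 1889 to 1560 and 257.

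Among the 11 input genes, *ITPR3*, an inositol trisphosphate receptor that releases stored calcium, was lower in tumors in all 3 comparisons with controls. It had 82.7, 57.6 and 120.7 CPM in blood, 83.9 CPM in spleen, 53.4 CPM in lung and 1.75 to 35.5 CPM in tumors (median 9.11). No tumor reached the lowest of these 5 controls, and genes with no overlap between the groups made up 2.22% of all genes tested. Its log2FC was -2.63 (SE 0.46, adjusted p = 0.000291) against the 5 controls, -2.82 (SE 0.54, adjusted p = 0.000463) against blood and -2.31 (SE 0.66, adjusted p = 0.03) against spleen and lung in edgeR.

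*NFAM1*, a myeloid and B cell receptor that signals into calcineurin, and *GRAP2*, the T cell receptor adaptor GADS, were called lower against blood and were not called against spleen and lung. *NFAM1* had 282.8, 105.5 and 147.1 CPM in blood, 29.9 CPM in spleen, 9.38 CPM in lung and 1.75 to 123.1 CPM in tumors (median 24.5). Its log2FC was -2.40 (SE 0.60, adjusted p = 0.00405, edgeR) against blood and 0.97 (SE 0.96, adjusted p = 0.572) against spleen and lung. *GRAP2* was 95.5 to 126.9 CPM in blood and 3.66 to 26.8 CPM in tumors, wholly below blood, as were 7.45% of all genes. Its log2FC was -3.03 (SE 0.38, adjusted p = 4.07e-06, edgeR) against blood and -0.40 (SE 0.58, adjusted p = 0.722) against spleen and lung. Both genes also belong to the marker lists of myeloid or T and NK cells, which were lower than in blood as well.

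*TNFRSF11A*, which encodes the osteoclast receptor RANK, was higher in tumors than in blood. It was at 0.539 to 1.36 CPM in blood and 0.789 to 27.6 CPM in tumors (median 6.43), a log2FC of 2.95 (SE 0.79, adjusted p = 0.00703, edgeR). Spleen and lung controls had 11.7 and 9.39 CPM, and against these 2 the log2FC was -0.28 (SE 0.74, adjusted p = 0.853). The decoy receptor gene *TNFRSF11B* was high in the thoracic tumor HS4 (132.5 CPM) and at 0.133 to 17.1 CPM in the other tumors, and it was not called in edgeR. The calcium-permeable channel gene *TRPC7* was called higher against blood (log2FC 7.19, SE 2.72, adjusted p = 0.0465, edgeR) and against the 5 controls (6.07, SE 2.04, adjusted p = 0.0299), with its reads concentrated in few tumors. It was 16.6 CPM in HS14, 8.88 in HS51 and 5.24 in HS53, with a median of 0.433 CPM over the tumors and at most 0.140 CPM in the 6 controls.

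Of the kinases that act on NFAT, the p38 genes *MAPK13* and *MAPK14* were lower than in blood and 3 others, *CSNK1E*, *DYRK2* and *MAPK9*, were not called in any comparison. *MAPK14* had 307.5, 383.6 and 171.0 CPM in blood and 5.45 to 106.8 CPM in tumors, wholly below blood, like 7.45% of all genes. Its log2FC against blood was -2.33 (SE 0.40, adjusted p = 0.000154, edgeR). Its level in spleen (56.9 CPM) and lung (55.6 CPM) was near the tumor median of 57.9 CPM, with a log2FC of 0.26 (SE 0.58, adjusted p = 0.823). *MAPK13* gave a log2FC of -2.51 (SE 0.57, adjusted p = 0.00203, edgeR) against blood and 0.90 (SE 0.93, adjusted p = 0.59) against spleen and lung. *MAPK12* did not pass the filter on low counts, with at most 0.0594 CPM in any library.

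Both nuclear partners differed from blood, in opposite directions. *EP300*, a histone acetyltransferase, was 307.5, 198.4 and 294.5 CPM in blood and 7.26 to 149.9 CPM in tumors, with a log2FC of -1.86 (SE 0.49, adjusted p = 0.00633, edgeR). *EGR1*, an immediate early zinc finger factor, was 2.72 to 4.50 CPM in blood and 16.6 to 522.9 CPM in tumors, with a log2FC of 4.62 (SE 0.97, adjusted p = 0.00097, edgeR). Neither gene overlapped between tumors and blood, where 16.5% of all genes did not overlap. The lung and spleen controls, at 389.4 and 74.7 CPM of *EGR1*, were inside the tumor range, and the log2FC against them was -1.23 (SE 0.77, adjusted p = 0.345).

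**Figure D2:**
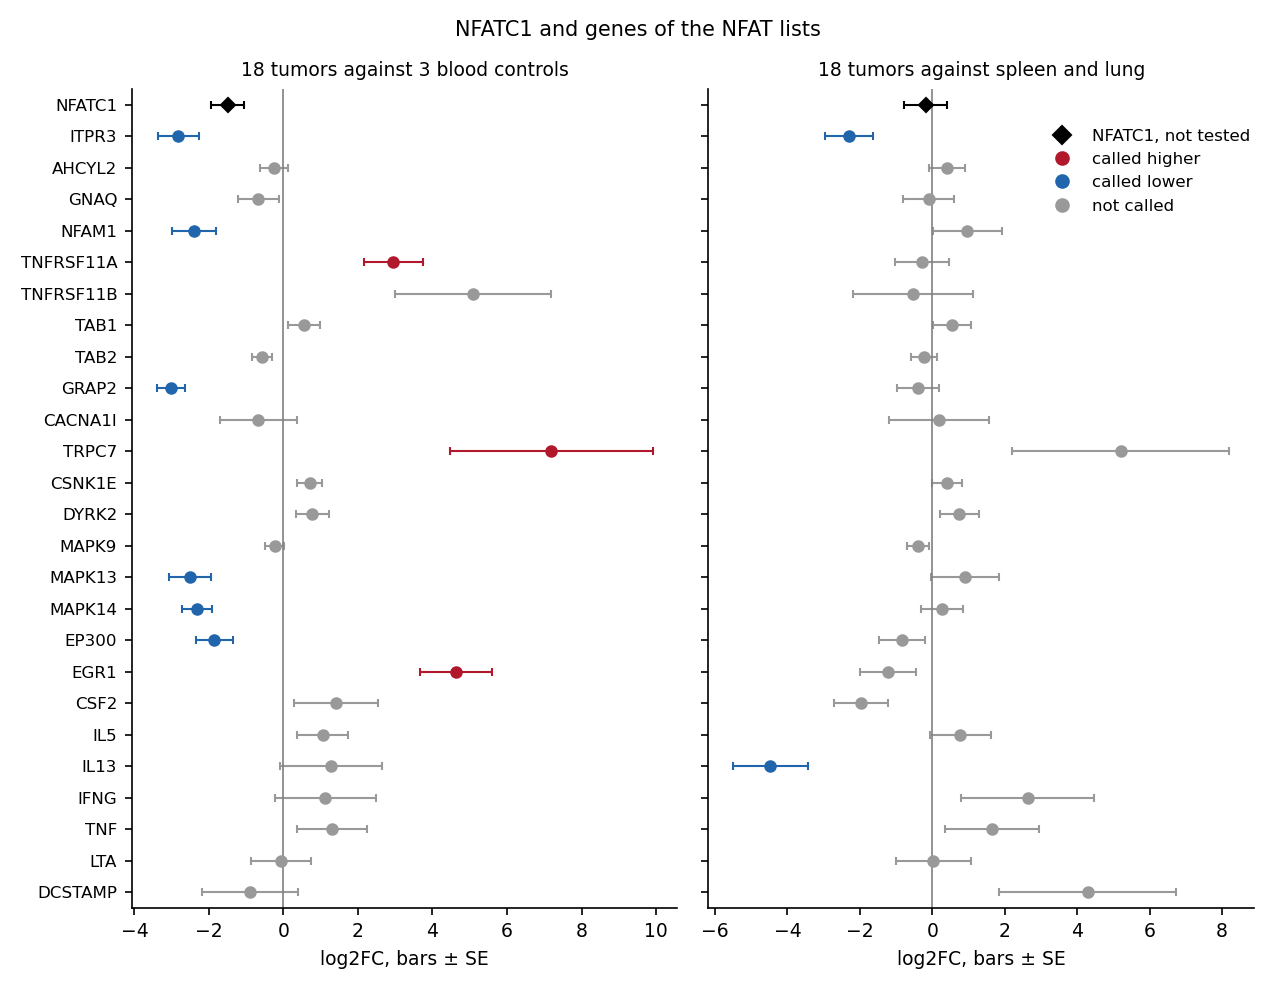
log2FC (points, bars ± SE) of *NFATC1* and of the NFAT list genes that passed the filter, for tumors against 3 blood controls (left) and against the spleen and lung controls (right). *NFATC1* lies at -1.50 and -0.18, and of the list genes 9 are called against blood and 2 against spleen and lung.

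Of the NFAT target genes, the cytokine genes *IL3*, *IL4* and *IL13* stayed under 1 CPM in every tumor. *IL3* and *IL4* did not pass the filter, and *IL3* had reads in only 2 of the 28 libraries. *IL13* was called lower against spleen and lung (log2FC -4.47, SE 1.03, adjusted p = 0.00738, edgeR), on levels of 2.78 CPM in spleen and 0.169 CPM in lung against at most 0.183 CPM in tumors. It thus rested on the spleen library. *TNF*, encoding the inflammatory cytokine, was 5.87 to 10.6 CPM in blood and 0.690 to 83.3 CPM in tumors (median 15.6), and its log2FC against the 5 controls, 1.44 (SE 0.80, adjusted p = 0.181, edgeR), was not called. *DCSTAMP*, encoding the fusion protein of osteoclasts and dendritic cells and a known *NFATC1* target, was 9.03 to 11.1 CPM in blood, 0.390 CPM in spleen, 0.240 CPM in lung and 0.00706 to 45.6 CPM in tumors (median 1.31). The HHS tumor HS53 held its highest tumor level.

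DC3F9 was made with GM-CSF and interleukin-4, and the genes of both responses were read beside *NFATC1*. *CSF2RB*, the shared beta chain of the GM-CSF receptor, was 213.8 CPM in DC3F9 and 93.4 (BD), 241.7 (OD) and 148.4 CPM (PJ) in the lines. *STAT6*, the transcription factor of the interleukin-4 receptor, was 231.9 CPM in DC3F9 and 276.6 to 282.3 CPM in the lines. In the TMM-scaled fit of the lines against DC3F9, *CSF2RB* and *STAT6* both had a log2FC below 0, and neither was called. The direction for *STAT6* thus turned with the scaling. In tumors *CSF2RB* was lower than in blood (39.7 to 438.5 CPM against 442.7 to 755.4 CPM, log2FC -1.72, SE 0.41, adjusted p = 0.00267, edgeR). Its level was 117.4 CPM in spleen and 28.4 CPM in lung, and the log2FC against these was 1.49 (SE 0.69, adjusted p = 0.192, edgeR). Against blood *STAT6* was not called (log2FC -0.41, SE 0.36, adjusted p = 0.39).

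For the lines against DC3F9, *NFATC1* gave a log2FC of -1.05 (SE 0.35), with all 3 lines below DC3F9. Of all 18121 genes tested 19% had the lines wholly below DC3F9 and 46.3% wholly above, so an ordered position is common with a single library on one side. No gene was called by edgeR (0%, with 2788 genes, or 15.4%, at an unadjusted p under 0.05), and DESeq2 called 1796. Of 23 NFAT list genes tested, 0 were called by edgeR, 7 had an unadjusted p under 0.05, and DESeq2 called 3, namely *EGR1*, *TNF* and *IFNG*. With library totals in place of TMM scaling the *NFATC1* log2FC was -0.58 (SE 0.36) while the median over all genes moved from 0.23 to 0.69.

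Of the 23 NFAT list genes tested, 5 had all 3 lines below DC3F9 and 11 had all 3 above it, which is near the shares over all genes (19% and 46.3%). *NFAM1* was 125.1 CPM in DC3F9 and 22.4 (BD), 52.4 (OD) and 7.40 CPM (PJ) in the lines, with a log2FC of -2.65 (SE 0.98, adjusted p = 0.312, edgeR). *DCSTAMP* was 165.3 CPM in DC3F9, the highest of the 28 libraries, and 12.3, 6.20 and 57.2 CPM in BD, OD and PJ. *TRPC7* was 61.8 CPM in DC3F9, 12.6 CPM in BD, 0.365 CPM in OD and 11.4 CPM in PJ. All 3 lines were below DC3F9 in each of these genes, and none passed the test (adjusted p = 0.308 for *DCSTAMP* and 0.377 for *TRPC7*, edgeR).

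*TNFRSF11A* was higher in the lines, at 15.1 CPM in DC3F9 and 42.1, 81.8 and 72.0 CPM in BD, OD and PJ (log2FC 1.65, SE 0.59, adjusted p = 0.304, edgeR). *EGR1* was 26.6 CPM in DC3F9 and 216.4 to 397.6 CPM in the lines, with a log2FC of 2.98 (SE 0.60) whose adjusted p was 0.141 in edgeR and 0.000521 in DESeq2. *TNF* was 3.402 CPM in DC3F9, 82.2 CPM in BD and 26.3 CPM in PJ, and was highest in OD, with a log2FC of 3.93 (SE 1.08) whose adjusted p was 0.221 in edgeR and 0.00199 in DESeq2. *IFNG* was 0.549 CPM in DC3F9 and at most 0.0103 CPM in any line. *AHCYL2*, related to the inositol trisphosphate receptor binding protein IRBIT, was 12.3 CPM in DC3F9 and 37.4 to 122.8 CPM in the lines (adjusted p = 0.312, edgeR).

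**Figure D3:**
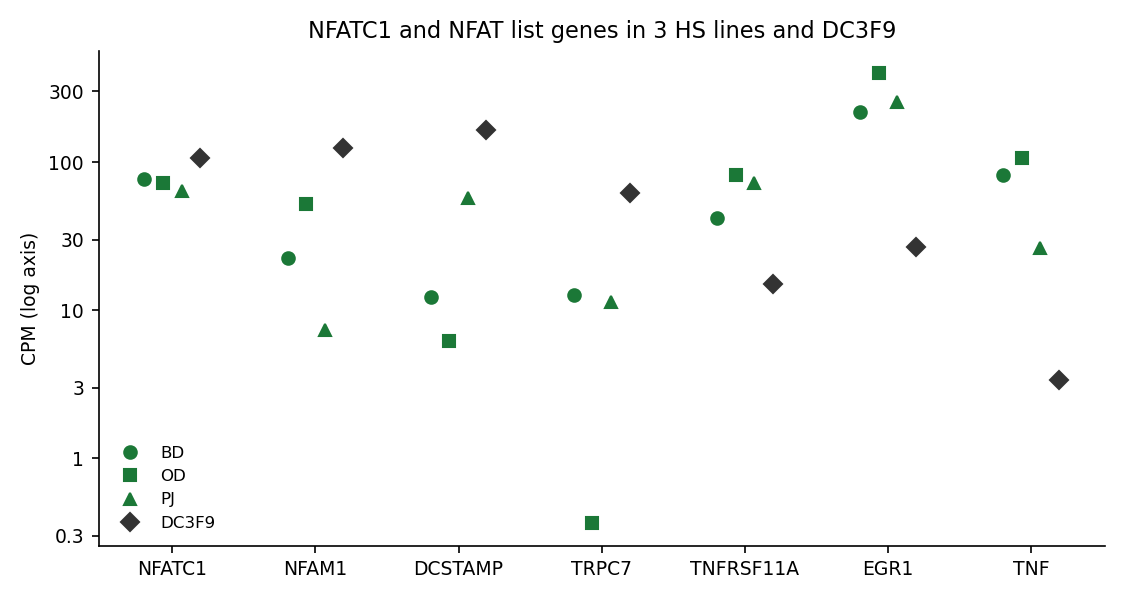
Levels (CPM, log axis) of *NFATC1* and 6 NFAT list genes in the HS lines BD, OD and PJ and in DC3F9, with 1 point per library. DC3F9 is highest for *NFATC1* (106.2 CPM), *NFAM1*, *DCSTAMP* and *TRPC7*, and lowest for *TNFRSF11A* (15.1 CPM), *EGR1* and *TNF*. The genes were picked after their values were seen.

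Which genes followed *NFATC1* from tumor to tumor was read from Spearman's rho over the 18 tumors among the genes with a dog symbol and a median of at least 1 CPM, whose median rho was 0.06. These values are a description, since all genes share the libraries and their depth. The highest were *TCF4* (rho 0.68), an E protein transcription factor of plasmacytoid dendritic cells, *AKAP7* (0.66), an anchor of protein kinase A, *PARVG* (0.62), a parvin of blood cell adhesion, *TGFBI* (0.61), a secreted matrix protein, and *EGR1* (0.60). With TMM scaling *AKAP7* and *TCF4* kept the first places (0.71 and 0.62), while *TGFBI* (0.58) and *EGR1* (0.56) ranked 9 and 10. At the other end stood *AGO2* (-0.51), the argonaute of small RNAs, *TMPRSS6* (-0.52), a membrane serine protease, and *SQSTM1* (-0.54), the autophagy receptor p62. With TMM scaling these were no longer the lowest, at -0.50, -0.58 and -0.56 and ranks 749, 755 and 754.

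Over the 24 tissue libraries, blood included, genes among the most alike were *TGFBI* (rho 0.71), *PARVG* (0.71), *TIAM2* (0.69) and *PRR5* (0.68), where the median of all genes was 0.12. These ranks rested in part on blood, whose medians were 2088 CPM for *TGFBI* and 122.5 CPM for *PARVG*. With TMM scaling *TIAM2* fell to rank 59 (0.44). *PARVG* and *TGFBI* were on both lists, and their medians in the HS lines were 0.380 and 0.989 CPM, although *NFATC1* itself was at 71.7 CPM there. In DC3F9 they were 46.1 and 732.9 CPM.

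The genes of the NFAT lists, which leave out calcineurin subunits and other NFAT genes, did not follow *NFATC1* as a group across tumors. Of 28 list genes 21 had a median of at least 1 CPM in tumors, and their rho with *NFATC1* ran from -0.30 (*MAPK13*) to 0.60 (*EGR1*) with a median of 0.07, next to 0.06 over the ranked genes. It was above 0 for 12 of the 21, and for 7 of the 21 after TMM scaling. *TAB1*, an adaptor of the kinase TAK1 in the RANK pathway, was next after *EGR1* at 0.48, and *DCSTAMP* was at -0.05.

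Cell type markers were also set against *NFATC1* over the 18 tumors, as 9 summed lists on a log2(CPM + 1) scale. Since *NFATC1* was chosen by its levels in these tumors, the correlations carry no test. Of the 9 lists B cells gave the highest Pearson r, at 0.43 (Spearman's rho 0.35), and myeloid cells the lowest, at -0.42 (rho -0.26). The B cell list held only 2 genes, and *DLA-DOB* made 82.5% of its mean sum in tumors, so its r is close to that of 1 gene. T and NK cells were at 0.19 (rho 0.19), with *TAGAP*, which the HS lines also express, making 51.5% of their mean sum. Without the 2 tumors farthest from the median marker sum, r was 0.39 for B cells, -0.11 for myeloid cells and -0.09 for T and NK cells, so the myeloid value rested on HS14 and HS53.

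The tumor HS14 had 5.74 CPM of *NFATC1* and the highest myeloid sum of the tumors (7549 CPM), and HS53 had 13.01 CPM and the next highest (5461 CPM). These sums were largely *LYZ*, the lysozyme gene, at 7222 CPM in HS14 and 4879 CPM in HS53. The other 6 myeloid markers together made 327.4 CPM in HS14, the lowest of the tumors, and 581.5 CPM in HS53. Without *LYZ* the myeloid r turned to 0.37, an alternative chosen after the values were seen, so the negative myeloid value rested on that 1 gene. HS33, with the lowest *NFATC1* of the tumors, had a myeloid sum of 1453 CPM with *LYZ* and 425.1 CPM without it. Hepatocyte genes summed to 116.3 CPM in HS33 and to 109.0 CPM in HS4, against 7138 CPM in the liver control.

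**Figure D4:**
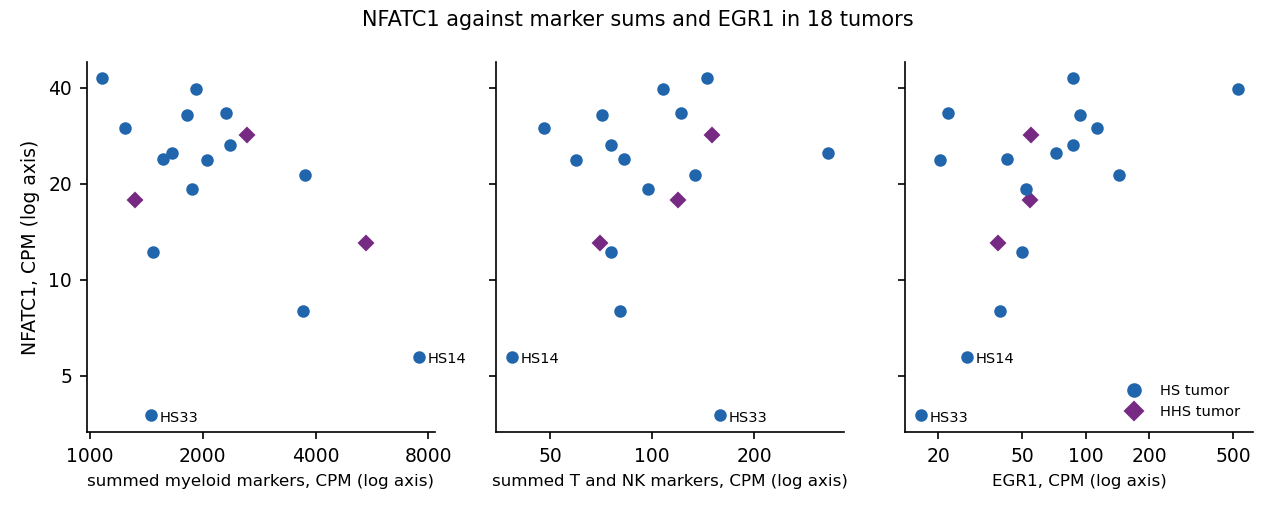
*NFATC1* level (CPM) in the 18 tumors against the summed level of 7 myeloid markers, of 7 T and NK cell markers and of *EGR1*, all on log axes, with HS33 and HS14 named. HS14 has the highest myeloid sum (7549 CPM, of which *LYZ* makes 7222), and HS33 has the lowest *NFATC1* (3.76 CPM) and the lowest *EGR1* (16.6 CPM).

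*NFATC1* lies on dog chromosome 1. The gene order around it was taken from RefSeq's annotation of another assembly (UU_Cfam_GSD_1.0) than the CanFam3.1 build of the counts, so no coordinates are given. All 12 chosen neighbours were found there, between 8 places before and 7 places after it, and 11 passed the filter on low counts. The gene directly before it is *CTDP1*, a phosphatase of RNA polymerase II, and the gene directly after it is *ATP9B*, a phospholipid flippase.

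Neither flanking gene was called against any control set. *CTDP1* was 22.6 to 55.3 CPM in blood and 19.5 to 57.5 CPM in tumors, with a log2FC of -0.11 (SE 0.36) against blood and 0.56 (SE 0.45) against spleen and lung. *ATP9B* was 42.8 to 50.7 CPM in blood and 10.5 to 41.2 CPM in tumors, wholly below blood, as were 7.45% of all genes. Its log2FC was -0.61 (SE 0.27, adjusted p = 0.0847, edgeR) against blood and 0.30 (SE 0.36) against spleen and lung. The rho of *NFATC1* over the 18 tumors was 0.50 with *ATP9B* and 0.40 with *CTDP1* (0.47 and 0.41 after TMM scaling), the highest of the 9 neighbours with a median of at least 1 CPM, whose median was 0.18.

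Farther along, 4 of the 11 neighbours tested were called against blood, where 25.3% of all genes were. Called lower were *MBP* (log2FC -2.26, SE 0.38, adjusted p = 0.00013, edgeR), *ZNF236* (-2.13, SE 0.44, adjusted p = 0.000878) and *ZNF516* (-1.59, SE 0.50, adjusted p = 0.0192). The splicing factor gene *TXNL4A* was called higher (log2FC 1.74, SE 0.45, adjusted p = 0.00524, edgeR). Against the 5 controls 2 of the 11, *MBP* and *ZNF236*, were called lower (10.3% of all genes), and against spleen and lung 0 of 11 were called by edgeR, with 2 at an unadjusted p under 0.05, where 23.7% of all genes had one. *GALR1*, a galanin receptor gene 3 places away, was 12.3 CPM in PJ, its highest library, 9.68 CPM in DC3F9 and 2.56 CPM in OD. It was 6.996 CPM in the HHS tumor HS53 and at most 1.32 CPM in the other tumors.

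**Figure D5:**
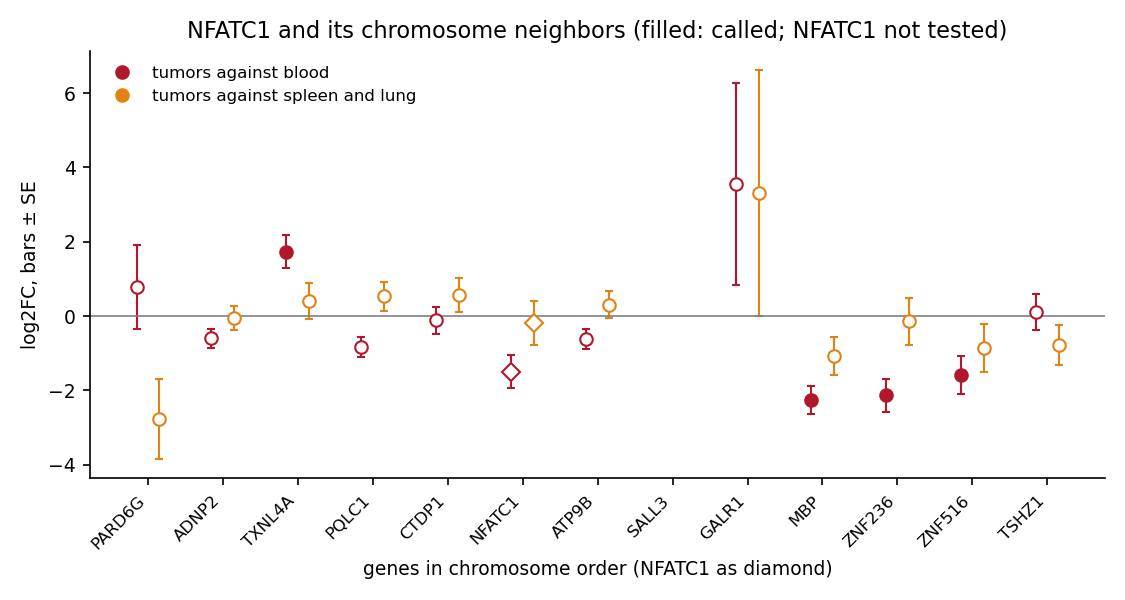
log2FC (points, bars ± SE) of *NFATC1* (diamonds) and its neighbours in chromosome order for tumors against blood and against spleen and lung, with called genes filled and *NFATC1* not tested. Against blood *MBP*, *ZNF236* and *ZNF516* are called lower and *TXNL4A* higher, and the flanking *CTDP1* and *ATP9B* are not called. *SALL3* did not pass the filter.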

How the data were processed

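RNA was sequenced from 18 tumors and 6 controls as ribosomal and globin depleted total RNA, and from 3 HS lines and DC3F9 separately. After trimming (cutadapt 3.7), alignment to CanFam3.1 (STAR 2.7.10a) and counting per gene (HTSeq 2.0.0) on ROSALIND, the authors deposited raw counts for 32704 identifiers. The annotation release and strand option are not given in the sources used here, so overlapping genes may share reads.

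CPM were computed from the deposited counts. Differences were fitted with edgeR 4.0.16 (R 4.3.3, limma 3.58.1 loaded): TMM factors, filterByExpr, quasi-likelihood test and Benjamini-Hochberg adjustment over all genes. The SE given with an edgeR log2FC is the absolute log2FC divided by the square root of the quasi-likelihood F statistic. DESeq2 1.42.0 was the alternative. Correlations were computed in Python 3.11.15 (scipy 1.17.1). Every library entered at least 1 description, and the liver control no main fit. The p-values measure the spread between libraries within a group, each a single dog or culture. In control groups with spleen and lung this spread also holds differences between tissues, and the single DC3F9 library adds none. No 2 libraries were duplicates, since the closest pair, OD and PJ, differed by a chi-square of 614.1 per gene.

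*NFATC1*, the gene lists and the markers were chosen with earlier results of these data known, so p-values of their genes are descriptive. Named genes are list members and the most and least alike genes by rho, of which 1 is not reported here. Names came from the study's supplementary tables, of which only a part could be read here. That part pairs 1126 identifiers with a name, 1025 of them with a dog symbol. Genes not named there entered no list and no ranking by rho. The 3-count limit was 0.0366 CPM in the smallest library, for counting error only.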

Additional observations from a re-analysis of the deposited data

Results flagged for a closer look

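Among the 4 liver tumors HS33 stood far from the others in *NFATC1*, at 3.76 CPM against 24.9, 26.5 and 28.4 CPM. Its gap to the nearest tumor was 0.861 of the whole range, and 0.728 after TMM scaling. The level was picked out by a screen against the Dixon value of 0.829 for 4 samples, which chance passes in about 1 in 20 groups and which was not passed after TMM scaling. Since the gene was chosen with these levels known, the screen is no test. HS33 also held hepatocyte genes at a summed 116.3 CPM, against 1.26 to 3.77 CPM in the 3 other liver tumors, and the part of these in its *NFATC1* level was not tested.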

How the results depend on the processing

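Of 45 alternative values of the *NFATC1* log2FC, 41 kept direction and moved by less than the spread between libraries (1 SD), 3 turned direction and 1 moved. Against spleen and lung it was 0.28 (SE 0.53) with the liver control added and 0.029 without the lung control, leaving out each control in turn giving -0.337 to 0.029. For HHS against HS it was 0.005 without HS53 (range -0.64 to 0.005 on leaving out each HHS tumor), and for lines against DC3F9 -0.58 with library totals. Leaving out each control gave -1.29 to -0.89 against the 5 controls and -1.71 to -1.38 against blood, and each line -1.11 to -0.99 against DC3F9. TMM scaling moved lung to 27.1, spleen to 22.04, liver to 7.06 and DC3F9 to 133.8 CPM. Of the NFAT list genes called against the 5 controls (8), 3 stayed under Benjamini-Yekutieli adjustment and 2 at an adjusted p under 0.0005, and 4 to 7 were called on leaving out each control (4, 4 and 5 without blood control 1, 2 or 3). Against spleen and lung (2) 0 were called under Benjamini-Yekutieli, 0 without the spleen control and 1 without the lung control. Against blood 6 to 9 were called on leaving out each control. For lines against DC3F9, where edgeR called 0, DESeq2 called 3. Of 46 alternative correlations with marker sums, which carry no test, 5 turned sign. The myeloid r was 0.374 without *LYZ* and -0.665 without HS33, both chosen after seeing the data. Without HS33 the endothelial r -0.048 and the hepatocyte r 0.16. The MHC class II r was -0.069 in HS tumors alone, and the lung epithelium r -0.041 with TMM scaling. No paired analysis was possible because the labels give no replicate numbers that link groups. Single organ controls and the single DC3F9 library limit every value set against them.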
